A study of Homo sapiens with 2 samples.

Results

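EHF, ELF3, GRHL1, GRHL2, OVOL1, TP63, ESRP1, ZEB1 and SNAI2 are regulators on opposing sides of the epithelial-mesenchymal transition (EMT), the change by which epithelial cells lose their contacts and take on a mesenchymal form. The 9 genes were taken from the 19052 gene identifiers listed in either library by their Entrez identifiers, 26298 for EHF, 1999 for ELF3, 29841 for GRHL1, 79977 for GRHL2, 5017 for OVOL1, 8626 for TP63, 54845 for ESRP1, 6935 for ZEB1 and 6591 for SNAI2. They were chosen by their measured values in these same 2 libraries, so those values are given as a description and no test is made on them. All 9 were listed with at least 1 read in each library.

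The cells were TSU-Pr1, an established bladder carcinoma line that was first described as a prostate line, and the labels of the treatment call them K12. The series title gives them stable KLF5 expression, so both groups share it. KLF5 is a Kruppel-like factor active in epithelia, and CINP, the gene targeted here, encodes a protein that binds cyclin-dependent kinase 2. The first library came from cells given a control siRNA (siCtrl) and the other from cells given siRNA against CINP (siCINP), both 48 h after transfection and grown with 8% fetal bovine serum. Neither the sequence and number of the siRNAs nor whether the KLF5 cells are a clone or a pool is given in the sources read. With 1 library in each group there is no replicate check and no p-value, and every interval below covers counting error only and compares these 2 libraries, not the conditions.

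Epithelial cells keep their identity through transcription factors that switch on genes for junctions, keratins and barrier proteins. EHF and ELF3 belong to the ETS family of epithelia, GRHL1 and GRHL2 to the grainyhead family that drives junction genes, and OVOL1 is a zinc-finger repressor that holds EMT factors down. TP63 encodes p63, the master factor of basal cells in stratified epithelium and urothelium, and ESRP1 is a splicing factor that sets the epithelial isoforms of genes such as CD44 and FGFR2. On the other side stand ZEB1 and SNAI2 (Slug), repressors that bind E-box sequences in epithelial genes such as CDH1, the gene of E-cadherin. GRHL2 and OVOL factors are each known to repress, and to be repressed by, ZEB1.

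Depth was close between the libraries, with 10365249 reads on 17847 genes for siCtrl and 10314147 on 18115 for siCINP. CINP was 4.02-fold lower in the siCINP library, with 203 reads in siCtrl, 53 in siCINP and a log2 ratio of -2.01 (95% interval -2.47 to -1.56). KLF5 had 4013 and 4077 reads and a log2 ratio of -0.05 (-0.11 to 0.02). Among markers of the labelled cell type, the keratin genes KRT8 and KRT18 were at 1552 and 1772 FPKM in siCtrl and at 1624 and 1942 FPKM in siCINP. All 6 epithelial markers had reads and summed to 56623 reads in siCtrl and 60415 in siCINP, nearly all from KRT8 and KRT18. Of the 5 with 20 or more reads in a library, 4 had intervals above 0 and the median log2 ratio was 0.64. The interval lay above 0 in 18.6% of all 13076 genes with that many reads. Among the 4 was KRT18, with a log2 ratio of only 0.06 (0.03 to 0.08) at a very high count. KRT7 had 154 and 297 reads and a log2 ratio of 0.88 (0.59 to 1.17), and KRT19 had 20 and 44 and a log2 ratio of 1.07 (0.28 to 1.91). EPCAM, a surface marker of epithelium, had 4 and 15 reads. The counts of the 4 keratins were not whole. The 7 urothelial markers summed to 113 and 109 reads, and UPK2, UPK3B and KRT20 had none in either library, so few reads came from markers of differentiated urothelium. The 8 fibroblast markers summed to 161 and 187 reads with COL1A2, PDGFRA, DCN and THY1 at 0. The 10 leukocyte markers summed to 109 and 119 reads with CD3E, CD3D and MS4A1 among those at 0. The 7 endothelial markers summed to 51 and 85 reads with TEK and ERG at 0. The less abundant epithelial markers thus had ratios above 0, of which that of KRT19 passed the 2-fold size used below, and the endothelial sum was higher at low counts. The part of these markers in the values below was not tested.

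The promoters are shown first because ZEB1 and SNAI2 act through the E-box, and because EHF, with the largest ratio of the 9 genes, and ELF3 and ZEB1, with the highest levels, are the genes on which the values below turn. RefSeq windows of the GRCh38.p14 assembly, from 250 bases before to 50 bases after a start site, were held for 5 of the 9 genes: 2 windows for EHF, 1 each for ELF3, GRHL1 and TP63, and 7 for ZEB1. All those printed are on the plus strand, 5′ to 3′, with the E-box CACCTG or its reverse complement CAGGTG in capitals. The EHF windows are chr11:34624007-34624306 and chr11:34632316-34632615, the ELF3 window is chr1:202010337-202010636, and the window shown of ZEB1 is chr10:31318966-31319265.
EHF, first window: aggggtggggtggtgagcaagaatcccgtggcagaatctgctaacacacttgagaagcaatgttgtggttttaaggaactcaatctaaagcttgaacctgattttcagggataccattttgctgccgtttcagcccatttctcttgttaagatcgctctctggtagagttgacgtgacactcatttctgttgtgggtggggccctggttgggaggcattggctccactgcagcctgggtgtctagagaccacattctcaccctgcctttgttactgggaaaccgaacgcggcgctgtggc
EHF, second window: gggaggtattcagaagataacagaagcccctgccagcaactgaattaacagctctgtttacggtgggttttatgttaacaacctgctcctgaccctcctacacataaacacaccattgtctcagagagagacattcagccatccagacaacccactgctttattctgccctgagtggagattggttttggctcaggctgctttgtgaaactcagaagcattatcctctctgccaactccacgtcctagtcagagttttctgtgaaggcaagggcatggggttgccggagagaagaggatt
ELF3: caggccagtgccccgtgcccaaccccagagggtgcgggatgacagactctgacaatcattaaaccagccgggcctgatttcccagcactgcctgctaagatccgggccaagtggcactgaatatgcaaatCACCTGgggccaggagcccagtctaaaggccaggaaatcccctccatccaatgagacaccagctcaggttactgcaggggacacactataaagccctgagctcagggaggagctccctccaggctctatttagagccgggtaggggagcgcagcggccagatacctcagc
ZEB1: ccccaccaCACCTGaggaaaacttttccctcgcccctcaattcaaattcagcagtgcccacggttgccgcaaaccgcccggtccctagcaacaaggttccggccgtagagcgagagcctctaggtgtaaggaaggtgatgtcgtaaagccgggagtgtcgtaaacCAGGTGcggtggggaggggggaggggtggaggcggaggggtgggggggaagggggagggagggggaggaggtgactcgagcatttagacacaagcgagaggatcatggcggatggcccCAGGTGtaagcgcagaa

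Neither EHF window held an E-box, the ELF3 window held 1 at 120 bases before the start, and the ZEB1 window shown held 3, at 242 and 85 bases before the start and at 34 within the transcript. The GRHL1 and TP63 windows held none, and with 1 TP63 window any other start of that gene was not searched. A further ZEB1 window held 1 at 57 bases before its start, and the remaining ZEB1 windows held none. The ZEB1 window shown is thus the one of its 7 with the most E-boxes. In all, 3 of the 12 windows held the E-box, against 20.6% of 35116 RefSeq windows of the same length, searched on both strands. The ETS letters AGGAAG stood in 3 of the 12 windows, all of ZEB1, against 33.6% of all windows. The palindrome AACNNGTT of grainyhead factors stood in 1 ZEB1 window, against 3.52%, and the OVO letters CCGTTA in another, against 3.07%. The GC box GGGCGG, the sequence type bound by KLF and SP factors, stood in 6 of the 12, against 45.0%, and in neither EHF window. The 7 ZEB1 windows belong to 1 gene and are not independent. A match is a run of letters only, and no binding was measured here.

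EHF, an ETS factor of glandular and surface epithelia, had 1 read in siCtrl (exact Poisson 95% interval 0.0253 to 5.57) and 24 reads in siCINP (15.4 to 35.7). It was thus nearly absent from the control library and low but present in the other, at 0.02 and 0.43 FPKM, and the count intervals of the libraries did not overlap. Scaled between libraries by the TMM method, EHF was 22.9-fold higher in siCINP, with a log2 ratio of 4.52 and an exact 95% interval from 1.90 to 9.88. The width of that interval comes from the 1 read in siCtrl.

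ELF3, the other epithelial ETS factor and the more abundant one, ran the other way. It had 286 reads in siCtrl (254 to 321) and 213 in siCINP (185 to 244), or 8.72 and 6.46 FPKM. The siCtrl library was the higher, by 1.41-fold, and the count intervals did not overlap. The log2 ratio of -0.49 had an interval from -0.76 to -0.23. ELF3 was short of the 2-fold size used below.

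GRHL1 was the only GRHL gene with more than 5 reads in a library. It had 73 reads in siCtrl (57.2 to 91.8) and 80 in siCINP (63.4 to 99.6), at 1.94 and 2.14 FPKM. Its log2 ratio was 0.06 (-0.41 to 0.54), so neither library stood above the other beyond counting error. GRHL2, the main grainyhead factor of simple epithelia, had 2 reads in siCtrl (0.242 to 7.22) and 5 in siCINP (1.62 to 11.7), with a log2 ratio of 1.25 (-1.36 to 4.65). Both libraries were at 0.09 FPKM or less for GRHL2 and their intervals overlapped.

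OVOL1 had 1 read in siCtrl and 5 in siCINP, at 0.03 and 0.16 FPKM. The log2 ratio of OVOL1 was 2.25 with an interval from -0.91 to 7.82, which holds 0. TP63 had 8 reads in siCtrl (3.45 to 15.8) and 16 in siCINP (9.15 to 26.0), a log2 ratio of 0.93 (-0.38 to 2.36). Although siCINP was the higher of the libraries for both genes, the count intervals overlapped. TP63 stood at 0.17 FPKM in siCtrl and 0.33 in siCINP, far below the factors ELF3 and ZEB1.

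ESRP1, the epithelial splicing factor, had 4 reads in siCtrl (1.09 to 10.2) and 16 in siCINP (9.15 to 26.0), at 0.11 and 0.44 FPKM. It was 3.82-fold higher in siCINP, with a log2 ratio of 1.93 and an interval from 0.30 to 3.97. The interval of the ratio lay above 0, while the separate count intervals overlapped slightly.

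The EMT repressors ZEB1 and SNAI2 were far apart in level. ZEB1 had 486 reads in siCtrl (444 to 531) and 566 in siCINP (520 to 615), or 7.75 and 9.13 FPKM. Its log2 ratio was 0.15, with an interval from -0.03 to 0.33 that holds 0 under TMM scaling. It did not hold 0 when the libraries were scaled by total counts (0.05 to 0.40) or by the upper quartile (0.02 to 0.37). ZEB1 is the only one of the 9 genes whose deposited count was not whole, at 486.17 and 566.14, so some of its reads may be shared with other genes. ZEB1-AS1, an antisense RNA beside it, had 39 and 50 reads and a log2 ratio of 0.29 (-0.34 to 0.93), and without a stated strand setting its reads cannot be told apart from those of an overlapping gene.

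SNAI2 had 2 reads in siCtrl (0.242 to 7.22) and 10 in siCINP (4.80 to 18.4), at 0.09 and 0.46 FPKM. Its log2 ratio of 2.25, 4.77-fold, had an interval from 0.02 to 5.48 that began just above 0. The ratio of this repressor thus lay above 0, as did those of EHF and ESRP1 on the epithelial side. In bulk samples, fewer cells of a type and less RNA per cell cannot be told apart, and at 10 and 24 reads a few expressing cells and a low level in all cells look the same.

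**Figure D1:**
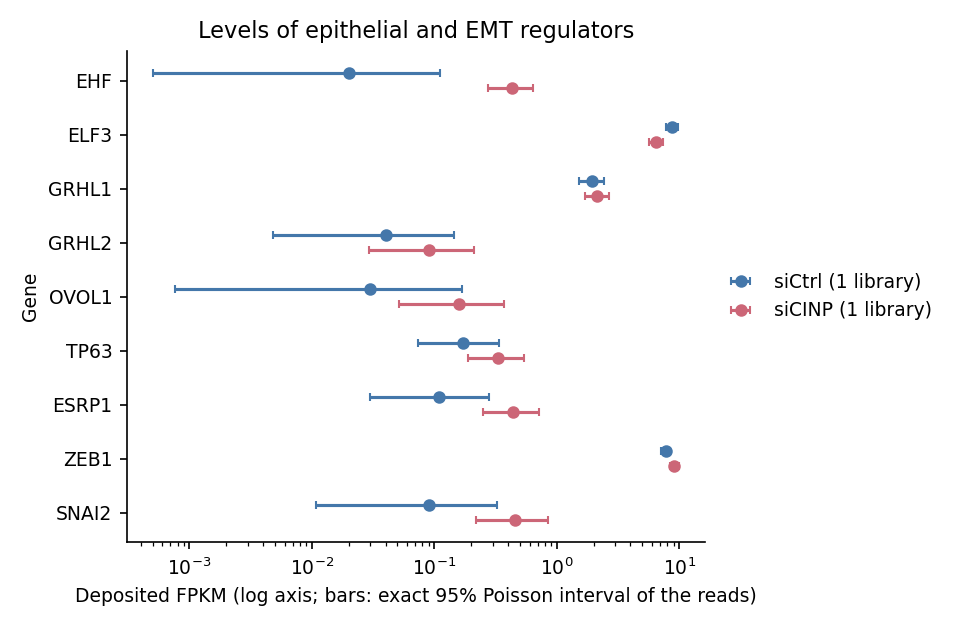
Deposited FPKM of the 9 regulators in the siCtrl and siCINP libraries on a log axis, with points for the 1 library of each group and bars for the exact 95% Poisson interval of the reads. ELF3, ZEB1 and GRHL1 lie above 1 FPKM in both libraries, and the other 6 lie at 0.46 FPKM or below.

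The order of levels per length differed between the libraries at the top. In siCtrl ELF3 led, followed by ZEB1 and GRHL1, and in siCINP ZEB1 led, followed by ELF3 and GRHL1. The ELF3 level divided by the ZEB1 level was 1.13 in siCtrl, where their FPKM intervals overlapped (7.74 to 9.79 and 7.08 to 8.47). It was 0.708 in siCINP, where they did not (5.62 to 7.39 and 8.39 to 9.91). GRHL1 was separated from the genes above and below it in both libraries. In siCtrl the remaining order was TP63, ESRP1, SNAI2, GRHL2, OVOL1 and EHF, and in siCINP it was SNAI2, ESRP1, EHF, TP63, OVOL1 and GRHL2. Each neighbour in those runs overlapped the next within its counting interval, so neighbours among the rare genes are not told apart. Over the whole run in siCINP, GRHL2 (0.0292 to 0.210 FPKM) lay below SNAI2, ESRP1 and EHF, whose intervals began at 0.221, 0.251 and 0.276.

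**Figure D2:**
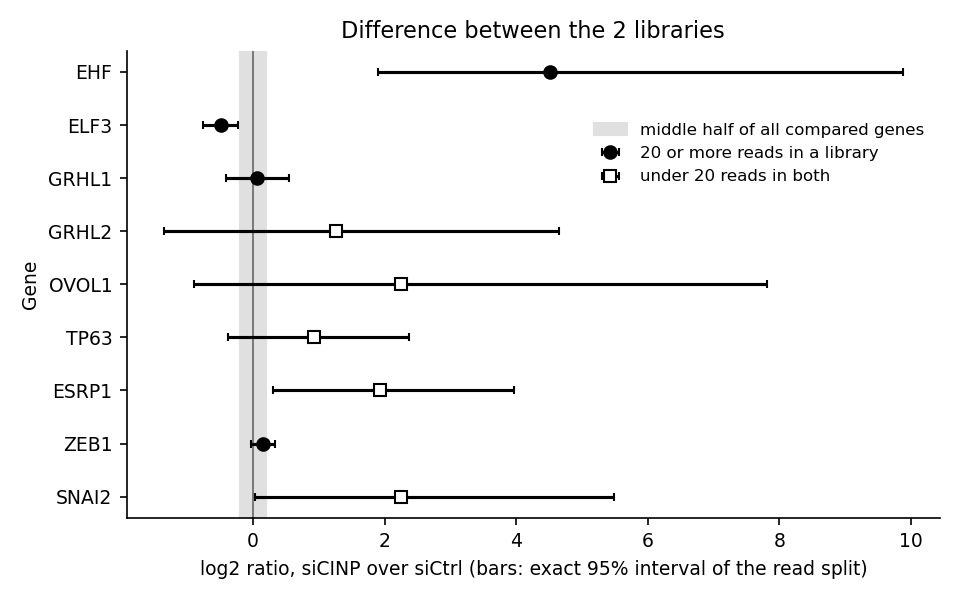
The log2 ratio of siCINP over siCtrl for the 9 regulators, with bars for the exact 95% interval of the read split and a grey band for the range from the lower to the upper quartile of all compared genes. EHF at 4.52 stands apart from ELF3 at -0.49 and GRHL1 and ZEB1 near 0, and the genes with few reads have wide bars.

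A gene was compared with all others where it had 20 or more reads in at least 1 library, and the size rule asked for a log2 ratio of at least 1, up or down, whose interval left out 0. Of the 9 regulators 4 were compared, EHF, ELF3, GRHL1 and ZEB1. EHF alone passed as higher and none passed as lower. Over 13076 compared genes, 221 were higher in siCINP (1.69%) and 184 were lower (1.41%). EHF was compared through its siCINP reads alone, a filter that favours genes high there, and since it was chosen by this ratio nothing is read from its place among these genes. The interval lay above 0 in 2430 of the 13076 genes (18.6%) and below 0 in 3023 (23.1%), and ELF3 is among the latter. The median log2 ratio of all compared genes was -0.01, with quartiles at -0.21 and 0.20.

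The 6 regulators with under 10 reads in siCtrl were EHF, GRHL2, OVOL1, TP63, ESRP1 and SNAI2. Together they had 18 reads in siCtrl and 76 in siCINP, and without EHF 17 and 52. All 6 ratios were above 0, and 3 of their intervals lay wholly above 0, those of EHF, ESRP1 and SNAI2. Among all 2284 genes with 6 to 25 reads summed over the libraries, the span of these 6 genes, the ratio was above 0 in 51.6% and the interval lay above 0 in 6.04%. Those 2284 genes had 14162 reads in siCtrl and 16142 in siCINP. Since the 6 genes were chosen by these same counts, nothing is read from the comparison of the shares.

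**Figure D3:**
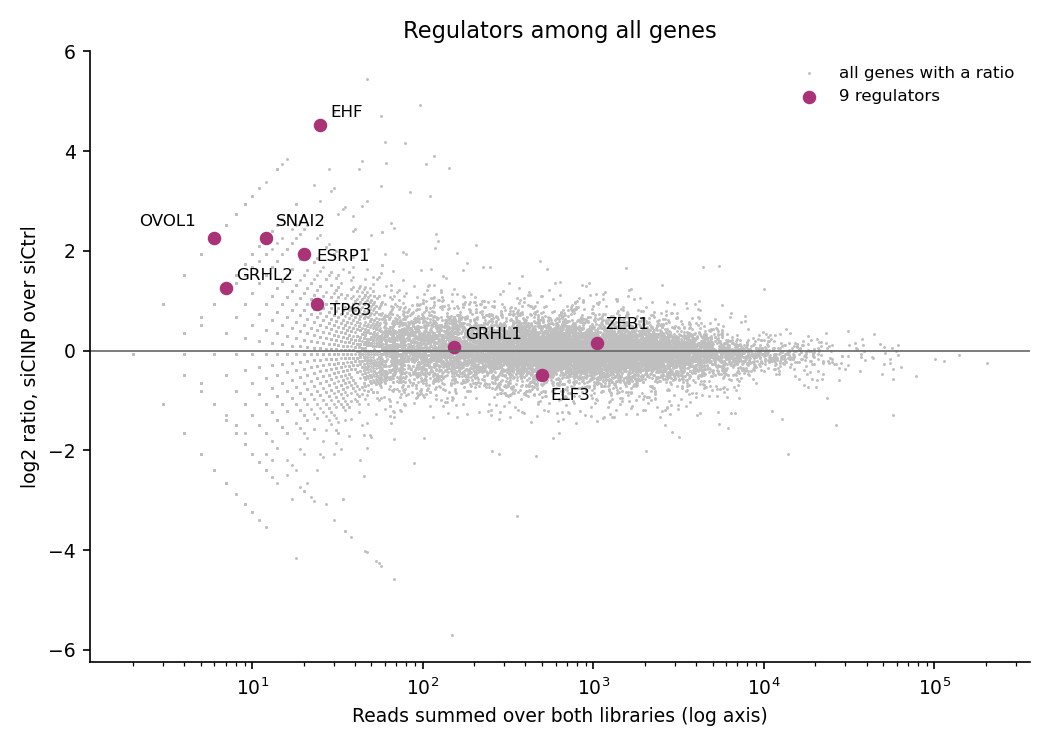
The log2 ratio of siCINP over siCtrl against the reads summed over both libraries (log axis) for all genes with a ratio, with a count of 0 set at 3 reads and the 9 regulators marked. GRHL1, ELF3 and ZEB1 lie within the main cloud near 0, and the 6 rare regulators lie above 0 where single reads spread the ratios widely.

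Close relatives of the 9 genes showed no gene past the size rule. Of 17 paralogs 15 had reads and 9 were compared, with 0 higher, 0 lower and a median log2 ratio of -0.09. ZEB2, the paralog of ZEB1, had 614 reads in siCtrl and 401 in siCINP, and its log2 ratio was -0.68 (-0.87 to -0.50). The ETS gene ELF2 had 481 and 379 reads and a log2 ratio of -0.41 (-0.61 to -0.21). UBP1, a relative of the grainyhead genes, had 844 and 1417 reads and a log2 ratio of 0.68 (0.56 to 0.80). The other epithelial splicing factor, ESRP2, had 54 and 64 reads, and SNAI1, the other main SNAI repressor, had 11 and 13. TP73, a paralog of TP63, had 541 reads in siCtrl and 556 in siCINP, far more than TP63. SNAI3, a further relative of SNAI2, had 8 reads in siCtrl and 1 in siCINP, too few to be compared. Its log2 ratio was -3.07 (-8.54 to -0.17), opposite in direction to that of SNAI2. GRHL3 had 0 and 5 reads, OVOL3 had 1 and 1, and ELF5 and OVOL2 had none. ESRP2, SNAI1, SNAI3, TP73, GRHL3, OVOL3, ELF5 and OVOL2 are named as the nearest relatives of the 9, after their values were seen.

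Among 17 other transcription factors of epithelia, 9 were compared, 1 was higher and 0 were lower, and the median log2 ratio was -0.02. Over all compared genes 1.69% were higher and 1.41% lower. The 1 higher gene had 7 reads in siCtrl and was compared through its siCINP reads alone. TFAP2C had a log2 ratio of 0.45 (0.29 to 0.61) and FOXA1, a pioneer factor of luminal cells, of -0.77 (-1.52 to -0.05). Among 16 other EMT factors 12 had reads, 10 were compared and none passed in either direction, with a median of 0.00. TCF4 had 197 and 111 reads and a log2 ratio of -0.90 (-1.24 to -0.55), and TCF3, which like TCF4 encodes an E-box-binding E protein, had 1051 and 1694, a log2 ratio of 0.62 (0.51 to 0.73). The counts of TCF4 were not whole. TWIST1, PRRX1, GSC and TBXT had no reads in either library.

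The genes on which ZEB1 and SNAI2 act were looked at next. Of 25 epithelial genes reported as repressed by ZEB and SNAI factors, all 25 had reads and 18 were compared. In that list 7 were higher in siCINP and 0 lower, and the interval lay above 0 in 10 and below 0 in 1. Over all compared genes 1.69% were higher, and the interval lay above 0 in 18.6% and below 0 in 23.1%. The median log2 ratio of the list was 0.40. It was 2.03 over genes with whole counts only, a setting that kept all 7 higher genes. It was 0.24 with a mean of 20 or more reads and 0.23 with a minimum of 50 reads. All 7 higher genes had 11 reads or fewer in siCtrl and were compared through their siCINP reads alone, a filter that favours genes high there. Across all genes 412 were compared in that way, of which 132 were higher. MAL2, of apical membrane transport, had 8 and 76 reads and a log2 ratio of 3.18 (2.13 to 4.44). The protease ST14 had 4 and 31 reads and its inhibitor SPINT1 had 4 and 30, with log2 ratios of 2.89 and 2.84. The P-cadherin gene CDH3 had 9 and 49 reads and a log2 ratio of 2.38 (1.34 to 3.59), and S100A14 had 6 and 25, a log2 ratio of 1.99 (0.67 to 3.57). CDH1, the E-cadherin gene, had 46 and 75 reads and a log2 ratio of 0.64 (0.09 to 1.20), short of the size rule, with counts that were not whole. LSR, the most abundant of the list, had 930 and 1073 reads and a log2 ratio of 0.14. In this list the genes that were higher in siCINP thus lay near the low end of the counts, as did EHF. The values of the repressors themselves are given above.

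Of 25 genes that p63 is reported to bind or raise, all had reads and 23 were compared, with 9 higher, 0 lower and a median log2 ratio of 0.47. The interval lay above 0 in 11 and below 0 in 5, ITGB4, ITGA3, JAG1, SFN and DST, named here to complete the count. Over all compared genes 1.69% were higher, and the interval lay above 0 in 18.6% and below 0 in 23.1%. Summed over the list the reads went the other way, from 32511 in siCtrl to 29688 in siCINP, for a log2 ratio of -0.20. Of the 9 higher genes 5 were compared through their siCINP reads alone, as were 412 genes in all, of which 132 were higher. Both this list and the one before it were drawn up with earlier results of these data known, so their counts are a description. The basal keratin gene KRT5 had 4 and 75 reads and a log2 ratio of 4.16 (2.74 to 6.07). The related KRT6A had 2 and 55 reads and a log2 ratio of 4.71 (2.79 to 7.79). The counts of both keratins were not whole and may share reads with related keratin genes. PKP1, a desmosome gene, had 3 and 57 reads and a log2 ratio of 4.18 (2.56 to 6.50). The hemidesmosome gene COL17A1 had 37 and 168 reads and a log2 ratio of 2.11 (1.59 to 2.67), and the laminin gene LAMA3 had 105 and 384, a log2 ratio of 1.80 (1.49 to 2.13). TRIM29 had 5 and 39 reads and a log2 ratio of 2.90 (1.55 to 4.60). ITGA3, the most abundant of the list, had 16460 and 13388 reads and a log2 ratio of -0.37. TP63 itself had 8 and 16 reads, with an interval that holds 0.

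Mesenchymal genes lay on both sides of 0. Of 30 such genes 24 had reads and 18 were compared, with 2 higher, 1 lower and a median log2 ratio of 0.03. Over all compared genes 1.69% were higher and 1.41% lower. The interval lay above 0 in 4 of the 18 and below 0 in 5, against 18.6% and 23.1% over all compared genes. Nothing particular to this list is read from that division. VIM, the gene of vimentin, had 19204 reads in siCtrl and 7167 in siCINP, from 862 to 323 FPKM, a log2 ratio of -1.49 (-1.53 to -1.45). TGFBI, a matrix protein induced by TGF-beta, had 10 and 133 reads and a log2 ratio of 3.67 (2.74 to 4.76), and it was compared through its siCINP reads alone. The neural cadherin gene CDH2 had 372 and 362 reads and the fibronectin gene FN1 3580 and 3852, and both were named after their values were seen.

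No upstream signal or partner gene passed the size rule. Of 23 genes of TGF-beta, Wnt and related signals 20 were compared, 0 passed in either direction, and the median log2 ratio was -0.20. In that list 10 intervals lay below 0 and none above, against 23.1% below and 18.6% above over all compared genes. ID2, an inhibitor of E proteins, had 205 and 116 reads and a log2 ratio of -0.89, and the TGF-beta effector SMAD3 had 2974 and 2227, a log2 ratio of -0.49. Its receptor gene TGFBR1 had 344 and 262 reads and a log2 ratio of -0.46. All 18 cofactors and regulators of ZEB1 and SNAI proteins were compared and 0 passed, with a median of -0.03. HDAC1, the deacetylase, had 1116 and 1981 reads and a log2 ratio of 0.76, the corepressor CTBP1 had 1527 and 1158, a log2 ratio of -0.47, and LOXL2 had 1358 and 962, a log2 ratio of -0.57. FBXL14, whose product marks SNAI proteins for degradation, had 260 and 158 reads and a log2 ratio of -0.79.

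**Figure D4:**
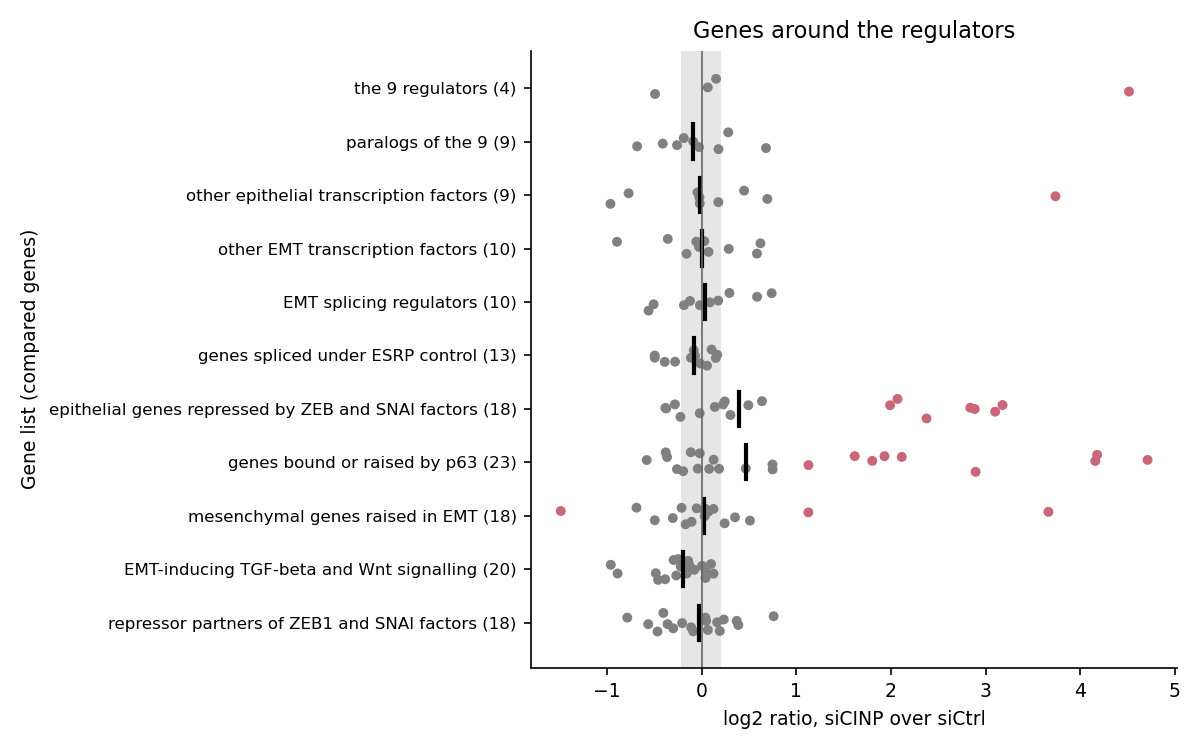
The log2 ratio of siCINP over siCtrl of each compared gene, by gene list, with the number compared in brackets, black bars for list medians (none drawn for the 9 regulators), red points for genes past the size rule and a grey band for the range from the lower to the upper quartile of all compared genes. Red points to the right number 7 among the genes repressed by ZEB and SNAI factors and 9 among the genes bound or raised by p63. Of these, all 7 and 5 of the 9 were compared through their siCINP reads alone. Over all compared genes 1.69% were higher. The lists were drawn up with earlier results of these data known, so their order is a description.

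ESRP1 acts on isoforms, and the deposited tables give for each gene a length that varies with the transcripts counted, a readout the choice of the 9 genes did not use. None of the 13 genes listed as spliced under ESRP control passed the size rule, and their median log2 ratio was -0.08. The deposited length of CD44 was 1.56% greater in siCINP, that of FGFR2 2.38% smaller (a change of -2.38%), and the others lay between. The median absolute change over the 13 was 0.265%, against 0.356% over 7091 genes with several transcripts, of which 452 (6.37%) changed by over 5% and none of the 13 did. Small or opposed exon changes need not move this length, so it bears only weakly on splicing. Among the 9 regulators the length of ELF3 was 1.03% greater in siCINP and that of ZEB1 changed by -0.69%, and the other 7 had the same length in both libraries. Of those, GRHL1, GRHL2, OVOL1 and SNAI2 were listed with 1 transcript each, so their length could not vary. EHF, TP63 and ESRP1 had 24 reads or fewer in each library, so nothing is read from their equal lengths. Of 11 other splicing regulators of EMT 10 were compared and 0 passed, with HNRNPM at a log2 ratio of 0.59, PTBP1 at -0.56 and RBFOX2 at -0.51.

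The 3′ UTRs of the 9 genes were searched for the heptamers TGCAAGA and GCAAGAA, which earlier work on these 2 libraries had singled out by their ratios. EHF carried both and SNAI2 carried TGCAAGA, and the other 7 carried neither, so 2 of the 9 genes held at least 1 of them. Among 11342 compared genes with an annotated 3′ UTR, 2085 held either (18.4%). That share covers compared genes only, and of the 4 regulators that were compared EHF alone held either. Whether such letters bear on the counts of EHF or SNAI2 was not tested.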

How the data were processed

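Total RNA of 1 siCtrl and 1 siCINP library was sequenced by BGISEQ-500, as the series design says. The authors deposited for each listed gene an expected count, which is an estimated read number that is not normalised, an FPKM value, scaled for length and library total, and a length, per the file headers. Bowtie2, HISAT and hg19 are named in the submitters' processing notes. The sources used here do not give the counting tool, the annotation or any strand setting. A gene absent from a table counted as 0 reads.

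Expected counts were rounded and scaled by TMM (edgeR 4.0.16, R 4.3.3), the factors being 0.974 (siCtrl) and 1.03 (siCINP). Each gene was given as a log2 ratio, siCINP over siCtrl, whose 95% interval is the exact Clopper-Pearson interval of its read split (scipy 1.17.1). Each count had an exact Poisson interval. A count of 0 stood at 3 reads, 0.297 CPM in siCtrl and 0.283 in siCINP. Compared genes had at least 20 reads in a library, and the size rule asked for a log2 ratio of at least 1, up or down, whose interval left out 0. No test of the conditions is possible with 1 library each. The calculation was tested on simulated Poisson counts with no further variation between libraries. True changes were placed only in genes with many more reads than the rare regulators had, so changes at their counts were not tried. A count within 0.005 of a whole number was called whole.

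Symbols of 18971 of 19052 identifiers, and promoter windows, came from RefSeq tables of GRCh38.p14, and 3′ UTRs from a GENCODE annotation, so no coordinate was moved between builds.

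The 9 genes and all lists were chosen with earlier results of these data known, the lists from general knowledge. Named genes are the 9, CINP, KLF5, and from each list members among the 6 with intervals farthest from 0, with the most abundant by FPKM. Some genes that this rule selects are not reported here. The settings varied were the scaling (total counts, upper quartile, DESeq2 1.42.0 size factors), thinning of the deeper library, FPKM with pseudocounts of 0.01 and 0.1, the minimum of reads, the size rule, the floor, and whole counts only.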

Additional observations from a re-analysis of the deposited data

How the results depend on the processing

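For the 9 regulators, 63 values under other scalings, thinning, floors or FPKM pseudocounts all lay within the interval of the reported ratio, and none changed sign where its interval left out 0. The floor could not change any of them, since all 9 genes had reads in both libraries. Each scaling shifts every gene by the same amount, and the intervals of the rare genes are wide. Lying within those intervals thus says little about the rare genes. The log2 ratio ranged from 2.14 to 4.59 for EHF, where a pseudocount of 0.1 FPKM gave the lowest, from -0.50 to -0.42 for ELF3 and from 0.15 to 0.24 for ZEB1. The ZEB1 interval held 0 with TMM, DESeq2 size factors and thinning, and lay above 0 with total counts (from 0.05) and the upper quartile (from 0.02). No other interval of the 9 genes began or ceased to hold 0 under these scalings. The log2 ratio ranged from 1.36 to 2.01 for ESRP1 and from 1.56 to 2.33 for SNAI2. With a minimum of 10 reads, or of 1 read, 3 regulators were higher, EHF, ESRP1 and SNAI2, and with a minimum of 50 reads none was. With a minimum of 1 read, 1 paralog was lower, SNAI3. With a mean of 20 or more reads, a setting added after seeing the data, EHF was not compared and 0 regulators were higher, and the list repressed by ZEB and SNAI factors had 3 higher genes in place of 7.

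Over all genes, 102 were higher and 117 lower with a minimum of 50 reads, 339 were higher with a minimum of 1 read, 119 were higher and 95 lower with whole counts only, 662 were higher and 637 lower by a 1.5-fold rule, and 2430 and 3023 by the interval alone. Scaling by total counts gave 296 higher and 149 lower genes, so that 66.5% of calls were higher against 54.6% with TMM. Of 330 values of the gene lists under other settings, 287 stayed within 1.5 times the reported count or, for medians, within 0.5 times the list's range between quartiles, and 43 moved, 4 of them among 110 medians. That tolerance is wide for lists with spread ratios. Many of the 287 were counts of 0 that stayed at 0, so they say little about lists with called genes. With a minimum of 50 reads, the list repressed by ZEB and SNAI factors had 2 higher genes in place of 7. The median of the list repressed by ZEB and SNAI factors moved to 2.03 with whole counts only. For that list it was 0.24 with a mean of 20 or more reads and 0.23 with a minimum of 50 reads. The genes bound or raised by p63 had 5 higher members with whole counts only in place of 9. No paired analysis was possible because each group has 1 library. The 6 rare regulators had 5 to 24 reads in siCINP and 1 to 8 in siCtrl, and this depth limits their ratios.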

Other observations

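The deposited length of LAMA3, a p63-related gene described above, went from 9061 in siCtrl to 6170 in siCINP, a change of -31.9%, so that its FPKM went from 1.10 to 5.97 while its scaled reads were 3.49-fold higher.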
